A study of Sus scrofa with 12 samples.

Results

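The neurotrophin system was described at the transcript level in pig endometrium, the mucosal lining of the uterus, from sows kept on 4 gestation diets. Its 5 genes were chosen by name: the receptors NTRK2, NTRK3 and NGFR and the ligands BDNF and NTF3, which are 5 of the 20674 genes in the count table. NTRK2 and BDNF were selected on their own measured levels, NTRK2 because it was higher and BDNF because it was lower in H + N than in L − N, so the values of that comparison are given below as a description with no test. All 5 were among the 15351 genes kept for testing after genes with low counts were left out. The filter asked for about 10 reads in 3 libraries. BDNF had 12 reads or more in all 3 L − N libraries and 20 and 11 reads in 2 of the other 9, so the group where it was high helped to keep it, and its passing supports nothing.

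Neurotrophins are small secreted growth factors best known for keeping neurons alive and guiding the growth of nerve fibers. Each is made as a larger precursor that proteases cut, and the mature forms bind Trk receptor tyrosine kinases. BDNF and NTF4 (neurotrophin-4) act mainly on TrkB, the product of NTRK2, and NTF3 (neurotrophin-3) acts mainly on TrkC (NTRK3). These ligands, and their precursors above all, also bind p75NTR, the product of NGFR. Trk receptors signal through the Ras-MAPK, PLCγ and PI3K-Akt routes. Outside the nervous system the family is also made in the female reproductive tract, where nerve fibers, muscle, stroma and epithelium are candidate sources.

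The groups were a low-fiber diet with 3.73% crude fiber (L − N), the same diet with 0.05% N-carbamylglutamate (L + N), a high-fiber diet with 7.46% crude fiber (H − N), and the high-fiber diet with 0.05% N-carbamylglutamate (H + N). N-carbamylglutamate (NCG) is a stable analog of N-acetylglutamate, the activator of the first step of the urea cycle, and is fed to raise arginine synthesis. All sows were Landrace × Yorkshire crosses fed from breeding through 114 days of gestation. There were 12 poly(A) RNA libraries, 3 in each group, with 14369781 to 19309724 counted reads. The labels give a number to each library and do not say which sow it came from, so the p-values below measure the spread between these samples. Summed stromal markers (9 genes, COL1A1 and DCN among them) reached 26969 to 62133 CPM (read counts scaled to a common library size with TMM factors) and summed epithelial markers (9 of 10 listed genes in the table, KRT8 and EPCAM among them) 1274 to 3615 CPM, so markers of both tissue layers were present. In 3 groups replicate pairs were uneven, by the chi-square per gene between the counts of 2 libraries. L − N replicate 1 lay at 98.6 and 74.7 from its group, whose other pair was at 23.2, H − N replicate 3 at 79.7 and 68.0 (24.1), and H + N replicate 3 at 48.9 and 80.5 (29.7). L − N replicate 1 held 5393 CPM of 7 smooth muscle markers, ACTA2, MYH11 and DES among them, against 1655 and 2070 CPM in L − N replicates 2 and 3 and 848 to 1630 CPM in the other 9 libraries, and H − N replicate 3 had the highest sums of neutrophil markers (172 CPM, against 4.73 to 101 CPM in the other 11 libraries) and of epithelial markers (3615 CPM). Values without these libraries are given for some of the results that rest on them.

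In the Sscrofa11.1 pig assembly, NTRK2 lies on the reverse strand of chromosome 10 (chr10:30030050-30429938) and NTRK3 on the forward strand of chromosome 1 (chr1:191535262-191941675). NGFR lies on the forward strand of chromosome 12 (chr12:25699410-25720355), BDNF on the forward strand of chromosome 2 (chr2:32623668-32679293), and NTF3 on the reverse strand of chromosome 5 (chr5:65052608-65122645). No member overlaps another gene of the table. Reads were counted over whole genes, so full-length TrkB, which has the kinase domain, and the truncated forms without it were counted together, and likewise for TrkC. In the deposited pathway annotation all 5 members belong to neurotrophin signaling, and all but NTRK3 also to PI3K-Akt signaling.

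NTRK2 was the most abundant of the 3 receptor genes. Levels of different genes were compared in FPKM (fragments scaled to gene length and library size), which corrects for gene length. The mean over 12 libraries was 4.22 FPKM for NTRK2, 0.979 for NTF3, 0.578 for NTRK3, 0.245 for NGFR and 0.243 for BDNF. NGFR and BDNF differed by far less than their spread, since single libraries ran from 0.0343 to 0.612 FPKM for NGFR and from 0 to 1.01 FPKM for BDNF, and they changed places when TMM-scaled counts per kilobase were used in place of FPKM. NTF3 (0.519 to 2.80 FPKM) and NTRK3 (0.217 to 1.96 FPKM) overlapped as well. NTF4, the other ligand of TrkB, stood between NTRK2 and NTF3 with a mean of 1.39 FPKM. It shares bases with KCNA7 and SNRNP70, which makes its reads uncertain.

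NTRK2 had the highest FPKM of the members and NTF4 in 11 of 12 libraries, L − N replicate 1 being the exception with NTF3 in first place. Its share of the summed FPKM of NTRK2, NTRK3 and NGFR was 48.9% to 87.8% in L − N and 76.7% to 79.9% in L + N, against 87.5% to 93.0% (H − N) and 84.9% to 92.2% (H + N) on high fiber. The share of BDNF in the summed FPKM of BDNF, NTF3 and NTF4 was 9.76% to 32.9% in L − N, 0.773% to 12.6% in L + N, 0% to 6.35% for H − N libraries and 3.25% to 14.0% for H + N libraries.

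**Figure D1:**
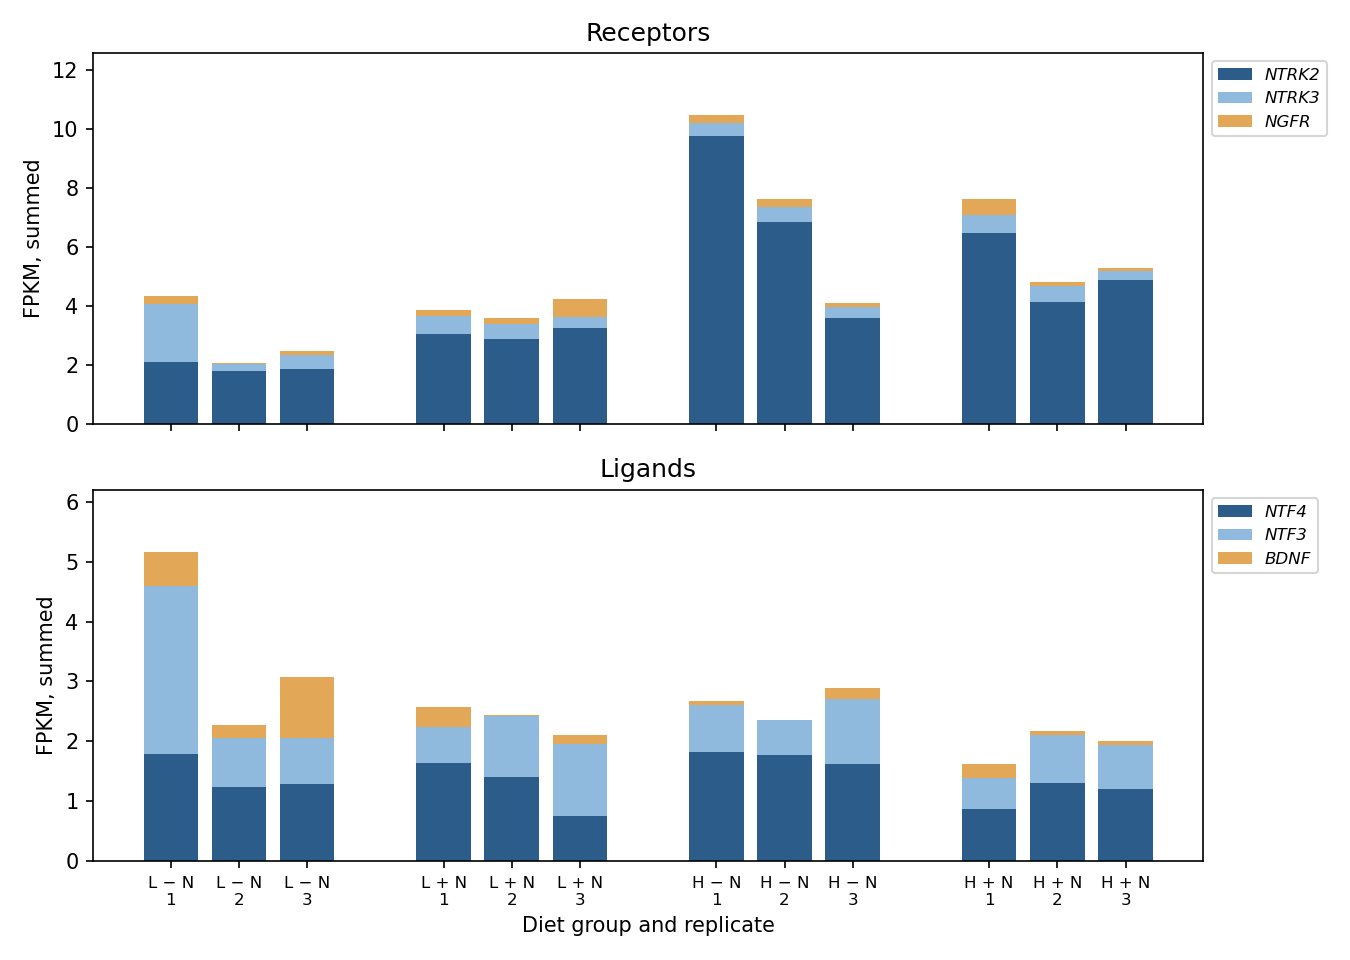
Stacked bars give the FPKM of 3 receptor genes (NTRK2, NTRK3 and NGFR, upper panel) and 3 ligand genes (BDNF, NTF3 and NTF4, lower panel) in each of the 12 libraries, by diet group and replicate. NTRK2 is the largest receptor part in every library, and its bars are tallest in the high-fiber groups, up to 9.75 FPKM.

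NTRK2 was higher in every high-fiber library than in every low-fiber library. NTRK2 was chosen on its H + N and L − N levels, so this separation is a description. In L − N it was measured at 36.5, 32.9 and 34.3 CPM, with a mean of 34.6 ± 1.83 CPM (SD, n = 3). The L + N libraries held 49.2, 47.8 and 53.6 CPM (50.2 ± 3.04). They lay above all 3 L − N libraries and below all 6 high-fiber libraries. H − N libraries had 160, 117 and 64.8 CPM (114 ± 47.8), and H + N libraries 111, 68.0 and 86.9 CPM (88.6 ± 21.5). These 2 groups overlapped, and H − N, not H + N, had the highest mean. H − N replicate 3, the library with the most neutrophil and epithelial marker reads, was the lowest of its group. The 3 H − N libraries spread over a wider range than all libraries of the low-fiber groups together. In bulk tissue, fewer cells of a type and less RNA per cell cannot be told apart, here and for every gene below.

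In the comparison that selected it, H + N against L − N, the fitted NTRK2 level was 2.56 times higher (log2 fold change 1.36, standard error (SE) 0.27). There 1 of the 5 members, NTRK2, met the study's call rule of an adjusted p under 0.05 and an absolute log2 fold change above 1, where 3.58% of all genes tested did, and nothing is read from that count. Comparisons that share the H + N or L − N libraries with it are also given without a test. On that footing NTRK2 differed by a log2 fold change of 1.72 (SE 0.28) in H − N against L − N and by 0.54 (SE 0.27) in L + N against L − N. Within the NCG-fed sows, H + N exceeded L + N by 0.82 (SE 0.27). NCG on the high-fiber diet (H + N against H − N) gave −0.37 (SE 0.27), of the opposite sign to the value on the low-fiber diet. Over both levels of the other factor, the fiber difference was 1.27 (SE 0.19), the NCG difference 0.09 (SE 0.19), and the fiber by NCG interaction −0.90 (SE 0.38). Without H − N replicate 3 the value was 2.003 (SE 0.19) for H − N against L − N, −0.65 (SE 0.19) for H + N against H − N and −1.18 (SE 0.26) for the interaction. Without H + N replicate 3, H + N against L − N gave 1.37 (SE 0.31).

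The only pairwise comparison with none of the libraries behind the choice in either group is H − N against L + N. Its SE and p still draw on the spread of all 12 libraries, which were fitted together. There NTRK2 was 2.27 times higher in H − N (log2 fold change 1.18, SE 0.27), with an unadjusted p of 0.00105 and an adjusted p of 0.106 by the edgeR quasi-likelihood test over 15351 genes, so it did not pass. With DESeq2 the same difference (log2 fold change 1.18) had an adjusted p of 0.00451 and passed. All 3 H − N libraries lay above all 3 L + N libraries. No gene of the 15351 was called in this comparison by edgeR (0%), while 2737 had an unadjusted p under 0.05 and DESeq2 called 287. Leaving out 1 library at a time kept the log2 fold change between 0.86 (H − N replicate 1 left out) and 1.47 (H − N replicate 3 left out).

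**Figure D2:**
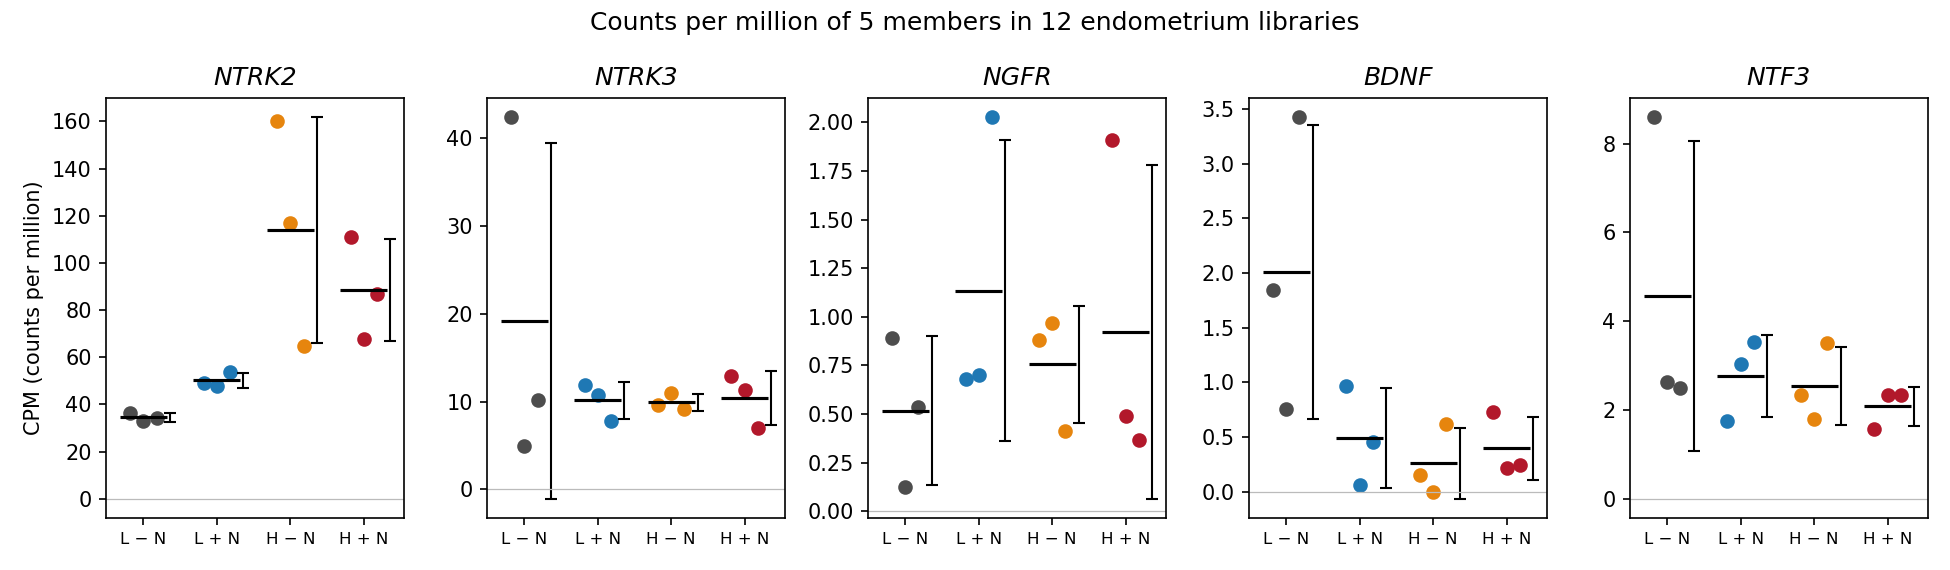
Points are single libraries (CPM, linear axes that differ between genes) in the 4 diet groups, horizontal lines are group means and vertical bars the SD of 3 libraries. NTRK2 separates the fiber levels without overlap, but it was chosen on its H + N and L − N levels. BDNF, chosen in the same way, is highest in 2 of the 3 L − N libraries. NTRK3 and NTF3 each have a single high point, L − N replicate 1.

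The summed stromal markers also had higher group means on high than on low fiber, but here libraries of the fiber levels overlapped. Those of NTRK2 did not, but NTRK2 was chosen on its H + N and L − N levels. The means were 30955 CPM in L − N, 37884 CPM in L + N, 45740 CPM for H − N and 47738 CPM for H + N. Replicates 1, 2 and 3 held 33457, 29702 and 29705 CPM in L − N, 26969, 38438 and 48244 CPM in L + N, 35390, 39695 and 62133 CPM in H − N, and 47758, 34751 and 60704 CPM in H + N. Within groups, NTRK2 and this sum had the same highest library in L − N and L + N and the same lowest library in H + N, while in H − N their orders were reversed. Schwann cell markers (10 genes) summed to 111 to 159 CPM in L − N, 101 to 108 CPM in L + N, 89.2 to 126 CPM in H − N and, for H + N, 62.4 to 123 CPM. The glial lineage factors of that list were near 0, with 3 to 14 SOX10 reads and 0 to 2 FOXD3 reads a library. Sums of 3 marker lists set L − N apart from the other 9 libraries without overlap. Pericyte markers (7 genes) were higher, at 940 to 1080 CPM against 521 to 759 CPM, as were the smooth muscle markers given above, and proliferation markers (7 genes) were lower, at 105 to 249 CPM against 257 to 529 CPM. Macrophage markers (7 genes) summed to 778, 2053 and 2078 CPM in L − N, of which the first overlapped with the other groups (394 to 869 CPM). The part of these cell types in the NTRK2 and BDNF values was not tested.

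BDNF, the high-affinity ligand of TrkB, was scarce. Its libraries held 29, 12 and 51 reads in L − N, 20, 1 and 7 in L + N, 3, 0 and 9 in H − N, and 11, 4 and 4 in H + N. In CPM these were 1.85, 0.752 and 3.43 in L − N (2.01 ± 1.34, SD, n = 3) and 0.971, 0.0582 and 0.458 in L + N (0.496 ± 0.457). The high-fiber groups had 0.155, 0 and 0.621 CPM (H − N, 0.259 ± 0.323) and 0.725, 0.217 and 0.245 CPM (H + N, 0.396 ± 0.285). L − N replicates 1 and 3 were above all others, while L − N replicate 2 was within the range of L + N. The other 3 groups overlapped. A count of 0 still allows up to 3 reads, and these counts carry counting error beside the spread between libraries.

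In H + N against L − N, which selected it, the log2 fold change of BDNF was −2.34 (SE 0.99), a 5.06 times lower fitted level, and it did not meet the call rule. It was −2.94 (SE 1.04) in H − N and −1.97 (SE 0.95) in L + N against L − N, given without a test because these share the L − N libraries. Each of the 3 diets that differed from L − N therefore had a lower fitted BDNF level than L − N, the NCG-only diet included, and the SEs were larger than the differences between these 3 diets. H + N against H − N gave 0.60 (SE 1.11), or 2.09 (SE 1.34) without H − N replicate 3, and H + N against L + N −0.37 (SE 1.02). In H − N against L + N, with none of the libraries behind the choice in either group, the log2 fold change was −0.97 (SE 1.08). The adjusted p was 0.664 by the edgeR quasi-likelihood test. At 12 and 28 reads in all in these 2 groups, a difference was not detectable at this depth. Leaving out a library moved that value from −2.45 (H − N replicate 3 left out) to −0.01 (L + N replicate 1 left out). The BDNF value in H − N against L − N likewise ran from −4.43 to −2.32, and that in H + N against L − N from −3.10 to −1.72.

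**Figure D3:**
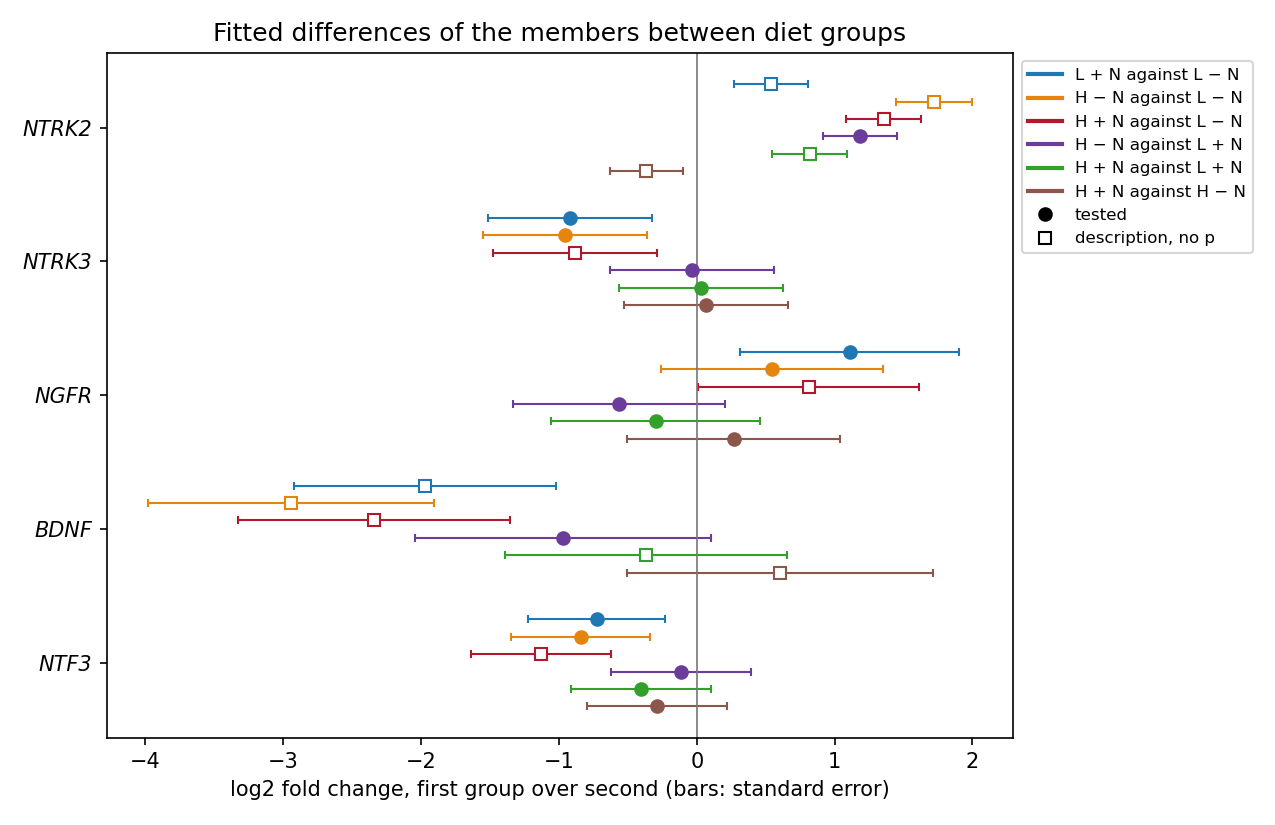
Each marker is a fitted log2 fold change with its SE (first group over second) for the 6 pairwise comparisons, filled where a test was made and open where values are a description. The values of NTRK2 lie between −0.37 and 1.72 with short bars, those of BDNF between −2.94 and 0.60 with long ones.

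NTRK3 and NTF3, a receptor and its main ligand, were both highest in L − N replicate 1. NTRK3 was measured at 42.4, 4.95 and 10.2 CPM in L − N, 11.9, 10.7 and 7.78 in L + N, 9.59, 11.0 and 9.10 in H − N, and 12.9, 11.3 and 6.93 in H + N. NTF3 had 8.60, 2.63 and 2.49 CPM in L − N, 1.75, 3.03 and 3.53 in L + N, 2.33, 1.80 and 3.52 in H − N, and 1.58, 2.34 and 2.33 in H + N. Apart from the high library, the values of all 4 groups overlapped for both genes. Smooth muscle markers were also highest in that library, as given above, and their part in the 2 values was not tested.

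Against L − N, the log2 fold change of NTRK3 was −0.92 (SE 0.59, adjusted p = 0.342, edgeR) in L + N and −0.95 (SE 0.60, adjusted p = 0.349, edgeR) in H − N. Without L − N replicate 1 these became 0.42 and 0.39, so the sign turned. NTF3 gave −0.73 (SE 0.50, adjusted p = 0.372, edgeR) in L + N and −0.84 (SE 0.50, adjusted p = 0.328, edgeR) in H − N, and without that library 0.11 and −0.01. For H + N against L − N, given without a test, the values were −0.89 (SE 0.59) for NTRK3 and −1.13 (SE 0.51) for NTF3.

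**Figure D4:**
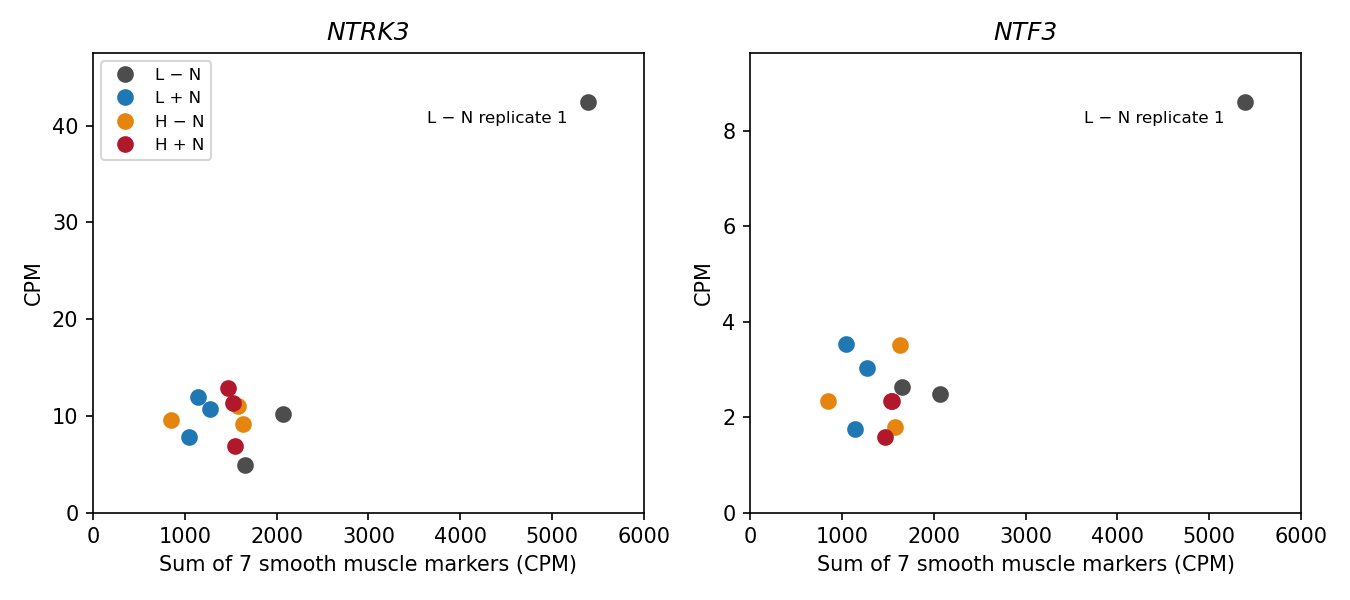
NTRK3 (left) and NTF3 (right) in CPM against the summed CPM of 7 smooth muscle markers, one point for each of the 12 libraries. L − N replicate 1, at 5393 CPM of markers, has 42.4 CPM of NTRK3 and 8.60 CPM of NTF3, and the other 11 libraries form 1 cluster in both panels.

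NGFR, the p75NTR receptor, was near the limit of measurement. It had 0.891, 0.125 and 0.537 CPM in L − N, 0.679, 0.699 and 2.03 in L + N, 0.881, 0.971 and 0.414 in H − N, and 1.91, 0.489 and 0.368 in H + N, from 2 to 31 reads a library. All 4 groups overlapped. Its log2 fold changes against L − N were 1.11 (SE 0.79, adjusted p = 0.391, edgeR) in L + N and 0.55 (SE 0.81, adjusted p = 0.722, edgeR) in H − N. Without L − N replicate 1 these were 1.75 and 1.19.

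Across all comparisons but the one used for the choice, 0 of 24 tests of NTRK3, NTF3 and NGFR passed, with edgeR adjusted p-values from 0.328 to 0.998. None had an unadjusted p under 0.05, the lowest being 0.108, and DESeq2 called 0 of them. Among all genes tested, 3.99% were called in L + N against L − N, 2.91% in H − N against L − N, 0.0261% for high against low fiber and 1.8% for with against without NCG. No gene was called in H + N against H − N (0%, 1331 genes with an unadjusted p under 0.05 and 25 called by DESeq2). The same held for H + N against L + N (0%, 719 and 2) and for the fiber by NCG interaction (0%, 1967 and 187). The SEs of 0.50 to 0.81 behind the pairwise values leave room for differences of up to 2 times or more for these 3 genes.

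NTF4, which can occupy the same receptor as BDNF, was not called by edgeR or DESeq2 in any of the 9 comparisons and had no unadjusted p under 0.05. It ran from 1.31 to 3.25 CPM over the 12 libraries. All L − N (2.38 to 3.25 CPM) and H − N libraries (3.10 to 3.19 CPM) lay above those of H + N (1.58 to 2.28 CPM). The H − N libraries also lay above those of L + N (1.31 to 2.77 CPM), and the other pairs of groups overlapped. Its log2 fold change was −0.40 in H + N against L − N and −0.62 in H + N against H − N. Of the 11 co-receptors and sorting receptors, all of which were tested, 0 were called in any of the 9 comparisons by edgeR or DESeq2. Over all genes edgeR called 0% to 3.99% in these comparisons, so nothing is read from 0 of 11. Unadjusted p-values under 0.05 numbered 3 (27.3%) in H − N against L − N, beside 24.4% of all genes. Elsewhere they numbered 0 or 1, where the shares over all genes were 4.68% to 27.8%. SORT1 (sortilin), which pairs with p75NTR to bind proneurotrophins, was the most abundant sorting receptor by mean FPKM, at 17.2. SORL1, a relative that sorts TrkB, reached 8.26 FPKM, and KIDINS220, a scaffold on Trk receptors, 23.1 FPKM. SORCS3, another sortilin relative, had a log2 fold change of 2.28 (SE 0.92, adjusted p = 0.158, edgeR) in H − N against L − N on 0 to 26 reads a library.

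Downstream of the receptors, the adaptors and kinases of Trk signaling were not called by edgeR. That list holds the Shc, Ras, Raf, MAPK, PI3K and Akt families, and 0 of its 51 tested genes passed in any pairwise comparison. Against L − N, an unadjusted p under 0.05 was found for 23 of them (L + N, 45.1%), 16 (H − N, 31.4%) and 21 (H + N, 41.2%), which did not reach the call rule. Over all genes tested these shares were 27.8%, 24.4% and 27.5%, lower in each comparison. With DESeq2 the Shc adaptor SHC3 (2.76 to 13.9 CPM over the 12 libraries) was called in H + N. Their median log2 fold change against L − N was −0.16 for L + N, −0.20 for H − N and −0.12 for H + N. Over the 126 tested genes of all lists together (135 listed, 133 in the table, members left out), the call rule was met against L − N by 2 genes (1.59%) for L + N, 3 genes (2.38%) for H − N and 3 genes (2.38%) for H + N. The background shares in those comparisons were 3.99%, 2.91% and 3.58%, so by the call rule the shares of the lists did not exceed the background. By an unadjusted p under 0.05 they were 31%, 27% and 31%, each above the share over all genes given above. Their medians of −0.18, −0.06 and −0.11 stood beside −0.02, 0.03 and 0.02 for all genes. In the comparisons among the other 3 groups, 0 of the 126 were called by edgeR, with 7 to 15 unadjusted p-values under 0.05.

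Of the 12 tested genes for proteases that process proneurotrophins and their inhibitors, MMP7 alone was called by edgeR. It was 8.33% of this short list in H + N against L − N, where 3.58% of all genes were called. MMP7 (matrilysin), an epithelial protease that cuts proneurotrophins, had 1173, 2006 and 789 CPM in L − N and 131, 140 and 54.0 CPM in H + N, groups that did not overlap. The single-diet groups were between or across these, at 327, 1145 and 392 CPM in L + N and 319, 131 and 1144 CPM in H − N. The summed epithelial markers moved with it only in part. They were lowest in H + N (1274 to 1428 CPM), without overlap with L − N (1499 to 2267 CPM), L + N (1595 to 1802 CPM) or H − N (1607 to 3615 CPM). H − N replicate 3, highest in this sum, was also the H − N library with 1144 CPM of MMP7. L − N replicate 3, however, had the highest sum and the lowest MMP7 of its group. The mean sum was highest in H − N (2408 CPM), where mean MMP7 (531 CPM) was below that of L − N (1323 CPM). SPP1 alone gave 126, 597 and 1258 CPM of the L − N sums. In L − N replicate 3 all other markers of this sum but FOXA2 were at their lowest of the 12 libraries, so the separation from L − N depends on SPP1. The part of epithelium in the MMP7 values was not tested. The fall in H + N against L − N was by 3.61 on the log2 scale (SE 0.80, adjusted p = 0.0275, edgeR). Without L − N replicate 2 or 3, or without H + N replicate 1 or 3, the adjusted p rose to between 0.0620 and 0.0838.

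Among 10 tested genes for BDNF transcription and the response to Trk signaling, VGF and EGR1 were called. They were 20% of this short list in H − N against L − N, where 2.91% of all genes were called. In H + N against L − N, VGF alone was 10%, beside 3.58% of all genes. VGF, a secreted neuropeptide precursor induced by neurotrophins in neurons, had 0.828, 14.9 and 21.0 CPM in L − N (13, 238 and 313 reads). It stayed between 0.184 and 1.99 CPM in the other 9 libraries, on 3 to 41 reads. L − N replicates 2 and 3 were thus high, and replicate 1 lay within the range of the other groups. Against L − N, VGF fell by 4.93 in H − N (SE 1.03, adjusted p = 0.0281, edgeR) and fell by 4.29 in H + N (SE 0.98, adjusted p = 0.0290, edgeR). In L + N it fell by 3.01 (SE 0.90, adjusted p = 0.0575, edgeR), which was called by DESeq2 only. L − N replicates 2 and 3 also had the highest sums of 8 neuron markers, 56.9 and 42.5 CPM, against 14.3 CPM in L − N replicate 1 and 8.49 to 17.6 CPM elsewhere. In these, UCHL1 alone gave 53.3 and 32.4 CPM, and PRPH 0.941 and 8.66 CPM. Over the 12 libraries STMN2 had 9 to 39 reads, SNAP25 0 to 78 and DBH 0 to 28, while NEFL, NEFM and TH had 0 to 4 reads. Macrophage marker sums split the same way, at 778, 2053 and 2078 CPM in L − N and 394 to 869 CPM elsewhere. The part of neurons or macrophages in the VGF values was not tested. Leaving out L − N replicate 2 or 3 or any H − N library raised the adjusted p in H − N to between 0.0664 and 0.106, and leaving out L − N replicate 2 or 3 or H + N replicate 1 or 3 raised that in H + N to between 0.0606 and 0.107.

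EGR1, an immediate early transcription factor, had 81.1, 116 and 63.9 CPM in L − N and 39.3, 44.5 and 33.5 CPM in H − N, without overlap. L + N (69.4 to 107 CPM) and H + N (69.5 to 98.6 CPM) overlapped with L − N. DESeq2 also called EGR1 in H + N against H − N and in H − N against L + N, where edgeR did not. The fall in H − N against L − N was by 1.15 on the log2 scale (SE 0.24, adjusted p = 0.0279, edgeR), with an adjusted p of 0.0509 to 0.0836 when L − N replicate 2 or 3 or any H − N library was left out. BDNF had its lowest mean in the same group, on 12 reads.

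The lists for p75NTR effectors and for the GDNF family, a separate group of neuronal growth factors, gave 3 further calls. MAPK10, the JNK3 kinase, had 6.11, 2.51 and 4.57 CPM in L − N and 12.7, 10.3 and 11.8 CPM in L + N, and rose by a log2 fold change of 1.40 (SE 0.31, adjusted p = 0.0207, edgeR). Its fitted level also exceeded L − N in H − N (0.82, SE 0.31, adjusted p = 0.134, edgeR) and H + N (0.99, SE 0.31, adjusted p = 0.0679, edgeR), without a call. MAPK10 was the only one of 32 p75NTR effector genes called, or 3.12% in L + N against L − N, beside 3.99% of all genes. RET, the receptor kinase of the GDNF family, had 11.8, 33.7 and 35.6 CPM in L − N and 4.02 to 15.7 CPM in the other 9 libraries. L − N replicate 1 thus lay within the range of the other groups, and the high replicates 2 and 3 were the libraries with the highest neuron and macrophage marker sums, whose part in the RET values was not tested. RET fell by 2.02 in L + N (SE 0.52, adjusted p = 0.0356, edgeR) and fell by 1.91 in H + N (SE 0.52, adjusted p = 0.0477, edgeR). In H − N it fell by 1.49 (SE 0.51, adjusted p = 0.109, edgeR), a difference called by DESeq2 only. GDF15, a stress-induced factor of the same list, had 0.891, 3.70 and 1.81 CPM in L − N and 0.155, 0.0694 and 0.345 CPM in H − N, and fell by 3.45 (SE 0.72, adjusted p = 0.0279, edgeR). These values rest on 14, 59 and 27 reads in L − N and 3, 1 and 5 reads in H − N. In H + N GDF15 fell by 1.89 (SE 0.63, adjusted p = 0.0822, edgeR), which was called by DESeq2 only. With a library of either compared group left out, the adjusted p reached 0.0591 to 0.0782 for MAPK10 (L − N replicate 3 or any L + N library), 0.0757 to 0.126 for RET in L + N (L − N replicate 2 or 3 or any L + N library), and 0.0721 to 0.0949 for GDF15 (L − N replicate 2 or 3, H − N replicate 1 or 2). For RET in H + N it was 0.0504 to 0.152 in 10 of 12 cases, all but L − N replicate 1 and H − N replicate 3.

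The genes whose levels ran most closely with NTRK2 over the 12 libraries were SFXN2, ANAPC5, NELL1 and SLC26A4. Pearson's r of log2 CPM with NTRK2 was 0.94, 0.93, 0.93 and 0.92, and Spearman's rho was 0.94, 0.95, 0.94 and 0.91. They are the 4 highest of 13589 genes, and the points share diet groups and library depth, so these are descriptions. With each group's mean subtracted r was 0.76, 0.65, 0.57 and 0.88, and none of the 4 stayed among the first 5. NELL1, a secreted glycoprotein, went from 1.02 ± 0.536 CPM in L − N and 4.17 ± 2.71 in L + N to 42.9 ± 26.5 CPM (H − N) and 21.6 ± 13.5 CPM (H + N, each SD over 3 libraries). SLC26A4, the anion exchanger pendrin, had 0.216 ± 0.0770, 2.59 ± 2.42, 13.2 ± 11.0 and 14.1 ± 9.72 CPM in the same order. SFXN2, a mitochondrial carrier, and ANAPC5, a subunit of the anaphase-promoting complex, spanned less than a doubling of their means.

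**Figure D5:**
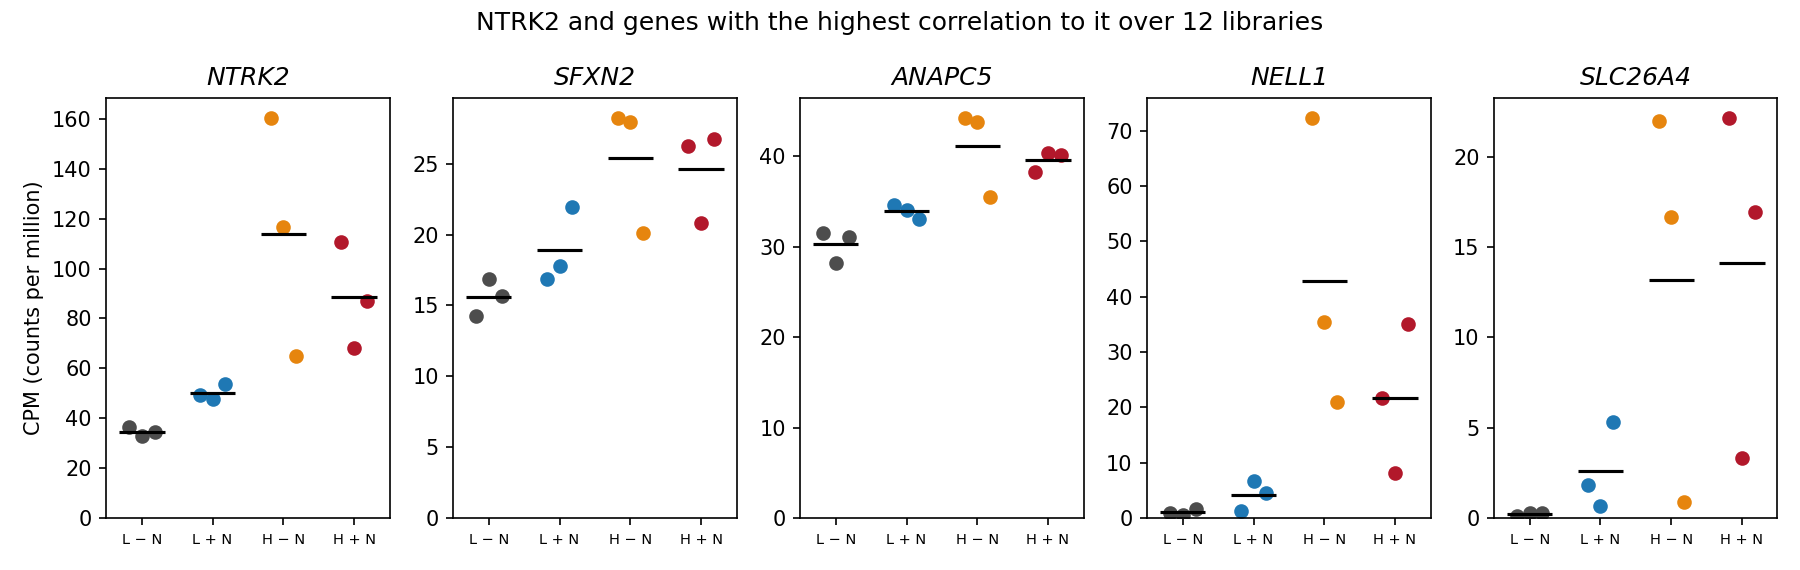
CPM of NTRK2 and of the 4 genes with the highest Pearson's r to it, with points for single libraries and lines for means of 3. All 5 have their lowest mean in L − N and lower means in both low-fiber groups than in both high-fiber groups.

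For BDNF the 5 closest of 13590 genes were CAMSAP2, NUDT18, GTPBP2, TRADD and MEF2D, with r of 0.86, 0.84, 0.82, 0.82 and 0.82. Within groups r was 0.69, 0.62, 0.74, 0.71 and 0.73, and none of them stayed among the first 5. All 5 had their highest mean in L − N, MEF2D at 122 ± 7.32 CPM in L − N against 98.7 to 112 CPM in the other groups. TRADD, an adaptor of death receptors, had 15.9 ± 1.60 CPM in L − N and means of 12.3 to 13.2 CPM elsewhere. GTPBP2 and TRADD each overlap a gene on the opposite strand, so their reads are uncertain.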

How the data were processed

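Poly(A) RNA of 12 endometrium samples was sequenced. Per the labels, the authors trimmed reads with fastp 0.22.0, aligned them to Sscrofa11.1 with HISAT2 2.1.0 and counted them per gene with HTSeq 0.9.1. They deposited the raw read counts, the FPKM values and a gene length (recomputing FPKM from the deposited counts and lengths gave the same values within 1.91e-05 percent). The strand setting of the counting was not given in the sources used here. Groups and replicate numbers were taken from the sample titles.

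Counts were tested in R 4.3.3 with edgeR 4.0.16 (filterByExpr with a minimum count of 10, TMM scaling, quasi-likelihood test with 8 residual degrees of freedom, Benjamini-Hochberg adjustment over 15351 genes). All 12 libraries were fitted together with 4 group means, and the biological coefficient of variation was 0.269. CPM values were TMM-scaled. A gene was called at an adjusted p under 0.05 and an absolute log2 fold change above 1, the thresholds of the study. DESeq2 1.42.0, other scaling, no filter, the 2 groups alone, a replicate block and leaving out each library were tried as alternatives. The scripts were tested on simulated data. The members and gene lists were chosen with earlier results of these data known. Named genes were the members, the other ligands, receptors and co-receptors, up to 8 called genes of each remaining list by adjusted p, and the 5 genes with the highest r to NTRK2 and to BDNF (log2 CPM with a prior count of 2, mean of at least 1 CPM). Some genes that these rules name are not reported here, and they were left out of the lists, marker sums and shares. The counts cover 14369781 to 19309724 reads a library, and statements on reads near 0 are limited by counting error. Replicates of a group were not duplicates of one library. Figures were drawn with matplotlib.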

Additional observations from a re-analysis of the deposited data

How the results depend on the processing

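Of 664 alternative values computed for the results, 577 were counted as the same. For tested values this meant the same direction and the same side of the call rule. For the untested values of NTRK2 and BDNF it meant a shift smaller than the SD within groups, and for counts a similar size. A sign could therefore change among the untested values. BDNF in H + N against L + N, for example, ran from −1.12 to 0.60 with 1 library left out. NTRK2 in H − N against L + N changed its call with DESeq2 (log2 fold change 1.18), not with other scaling, no filter, the 2 groups alone (adjusted p = 0.122), the replicate block or any library left out (adjusted p from 0.0769 to 0.339, edgeR). Leaving out single libraries moved NTRK3 from −1.37 to 0.42 in L + N and from −1.41 to 0.39 in H − N, and NTF3 in L + N from −1.02 to 0.11, all against L − N, with the upper end in each case without L − N replicate 1. BDNF in H − N against L − N ran from −4.43 to −2.32, the ends being the fits lacking H − N replicate 3 and L − N replicate 3. The count of other genes of the neurotrophin lists called against L − N was 2 for L + N, 3 for H − N and 3 for H + N, and 12, 10 and 13 with no fold threshold. Calls over all genes with no fold threshold were not counted, so nothing is read from 12, 10 and 13. With DESeq2 the list count was 5 in H + N against L − N, 1 in H + N against H − N and 1 in H − N against L + N, both EGR1. Over all genes DESeq2 called 1000 of 15530, 25 of 17657 and 287 of 15884 in these comparisons. With the 2 groups alone the list count was 1 for L + N, 0 for H − N and 1 for H + N. Over all genes it was 537 of 14999, 3 of 14798 and 87 of 14869. Leaving out 1 library gave list counts of 0 to 3 for L + N, 0 to 9 for H − N and 0 to 6 for H + N, with the highest values without L − N replicate 1. Calls over all genes moved too, from 143 to 911 (L + N), 0 to 1120 (H − N) and 1 to 948 (H + N). Their highest values were also without L − N replicate 1, beside 613, 446 and 549 with all libraries. The cause of these moves was not tested.

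With the replicate block the list count was 1 in H − N and 2 in H + N against L − N. Over all 15351 genes tested, 254 and 397 were called there. NTRK2 in H − N against L + N had a log2 fold change of 1.13 with the block (adjusted p = 0.136, edgeR). Libraries with the same number did not deviate together (correlations of residuals from −0.32 to 0.28), so the number was not treated as a pairing. The block ended the calls of VGF in H − N (adjusted p = 0.0552) and H + N (0.0512), and GDF15 in H − N (0.0513). Depth limits BDNF and NGFR, which had 0 to 51 and 2 to 31 reads a library.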
